A study of Mus musculus with 8 samples.

Results

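Cytokines are secreted proteins through which cells signal to each other; they include the interleukins, the chemokines that guide moving cells, the tumour necrosis factor (TNF) family and the colony-stimulating factors of myeloid cells. Many of their genes are switched on through NF-kappa-B in inflamed fibroblasts, and receptors that share the gp130 chain signal through JAK kinases and STAT factors. Fibroblasts are both a source of chemokines and a responder to cytokines of the interleukin-6 family. The genes described here were chosen by symbol alone: chemokine ligands and receptors, interleukins and their receptors, TNF ligands and receptors, colony-stimulating factors and receptors, Lif, Lifr and Osmr, without antisense and pseudogene symbols. This gave 174 of the 50600 genes listed.

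The RNA came from embryonic fibroblasts of C57BL/6 mice, transduced with retroviruses for the GHMT factors (Gata4, Hand2, Mef2c and Tbx5) that turn fibroblasts towards heart muscle cells, and grown in StemPro-34 SFM medium. For 7 days they received 1% DMSO, 5 µM I-CBP112, which binds the bromodomain of the acetyltransferases CBP and p300, 5 µM C646, which inhibits their catalytic activity, or 0.1% ethanol, with 2 libraries a group and 8 in all. All groups carried the factors. Untransduced cells were not analysed here, and neither the solvent of each inhibitor nor the share of transduced cells is given in the sources used here. The values come from the authors' comparison tables, which give no value of a single library. They do not say what each treatment was compared with; ethanol was assumed because it alone has no table.

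Of the 174 genes, 157 had counts and 17 had none in any library, which allows a mean normalised count of up to 0.375 each (3 counts over 8 libraries, counting error only). The authors gave an adjusted p in both the DMSO and the I-CBP112 table to 72 of them, those with a mean normalised count of at least 26.1. The other 85 with counts lay below that filter. Errors after ± are the deposited standard errors (SE), whose median in log2 units with DMSO was 0.317 for the 72 genes and 0.185 for all 14830 genes tested, so small changes were harder to detect here. Group levels below are mean normalised counts rebuilt from the tables. The libraries carry the numbers 2 and 3 in every group, with no word on what a number marks or whether the 2 came from separate cultures, so the p-values measure the spread between these libraries, which may be technical.

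All 9 fibroblast markers on a list of such genes (Col1a1, Dcn, Pdgfra and others) were tested. Their summed level was 588995 normalised counts with DMSO, 526149 with I-CBP112, 932843 with C646 and 950734 with ethanol. Col3a1 alone had 442902 of the counts with ethanol. With DMSO 7 of the 9 fell (77.8%, where 7.90% of all genes fell), and with I-CBP112 6 did (66.7%, where 5.25% fell). All 9 lay below 0 with either treatment, with medians of -0.66 and -0.88. In bulk RNA, fewer cells of a type and less RNA per cell cannot be told apart. Markers of macrophages and leukocytes were present, with 14 of 18 rows tested, none at 0 and a summed level of 5418 with DMSO, 4619 with I-CBP112, 5033 with C646 and 5316 with ethanol. Of these, none was called with DMSO and 1, Adgre1, fell with I-CBP112 (-0.74 ± 0.24, authors' deposited table). Markers of T, B and NK cells summed to 47.0 normalised counts with DMSO, 35.3 with I-CBP112, 35.1 with C646 and 29.2 with ethanol, with 0 of 10 tested and Nkg7 at 0. The 7 endothelial markers summed to 615 normalised counts with DMSO, 676 with I-CBP112, 1040.3 with C646 and 1048 with ethanol, the 7 epithelial markers to 40.8, 41.2, 118 and 121 in the same order, and the 8 mast cell and granulocyte markers to 371, 609, 637 and 592, with Elane, Fcer1a and S100a9 at 0. Few genes set the endothelial, epithelial and mast cell sums. With DMSO, I-CBP112 and ethanol, Kdr had 367, 393 and 525 normalised counts, Tek 191, 249 and 451, and Pecam1 16.3, 13.7 and 14.9. Krt14 had 5.28 with DMSO, 5.86 with I-CBP112 and 55.1 with ethanol, and Krt8 27.6, 11.8 and 29.6. Mcpt4 alone had 339 with DMSO, 569 with I-CBP112, 601 with C646 and 556 with ethanol. All 3 tested endothelial markers lay below 0 with DMSO and with I-CBP112, where 45.6% and 47.7% of all tested genes did. Krt14 was the only epithelial marker tested. Whether a whole cell type shifted was not tested. The part that a change in cell make-up had in the results below was not tested.

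The cytokine and receptor genes moved mostly downward with DMSO and with I-CBP112. At an adjusted p below 0.05 in the authors' deposited tables, 13 of the 72 tested genes fell and 2 rose with DMSO, and 17 fell and 3 rose with I-CBP112. With C646 none of them passed. Among all genes with an adjusted p, the share called was 16.0% with DMSO (7.90% lower, 8.07% higher), 9.90% with I-CBP112 (5.25% lower, 4.65% higher) and 0.00584% with C646 (0.00292% in each direction). Among the 72 genes it was 20.8% with DMSO (18.1% lower, 2.78% higher) and 27.8% with I-CBP112 (23.6% lower, 4.17% higher). Their median log2 fold change was -0.27 with DMSO, where that of all tested genes was 0.03, -0.30 with I-CBP112 against 0.01, and 0.02 with C646 against 0.00. The 3 comparisons use the same ethanol libraries, so a deviation in these would move all 3 alike.

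**Figure D1:**
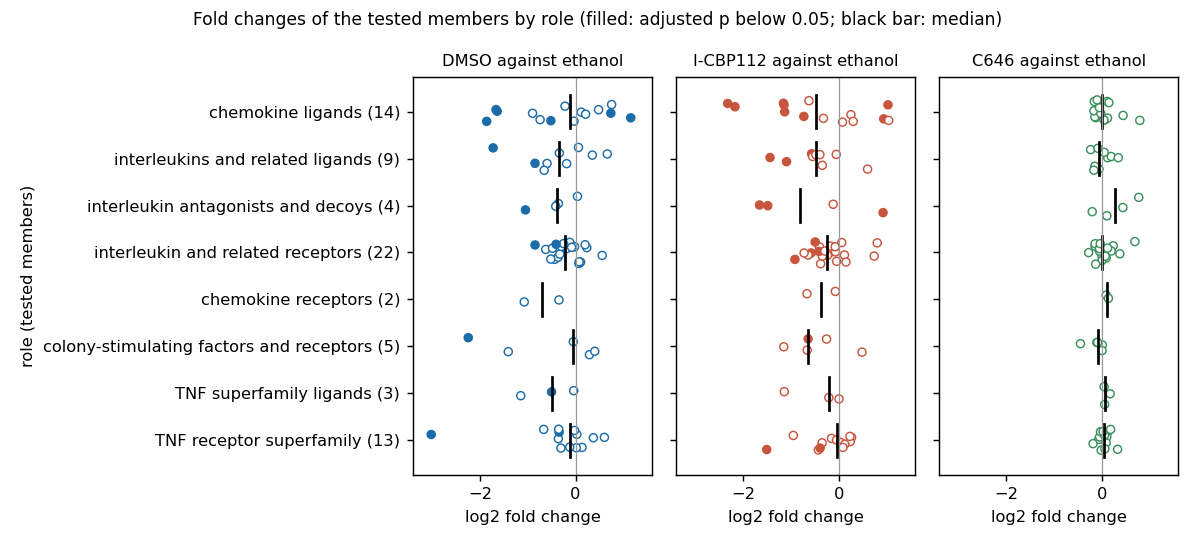
Each point is 1 of the 72 tested genes, placed by its log2 fold change against ethanol (horizontal axis) and its role (rows, with the number of tested genes), in a panel each for DMSO, I-CBP112 and C646; filled points passed adjusted p 0.05 and black bars are medians. Filled points lie mostly left of 0 with DMSO (13 lower, 2 higher) and I-CBP112 (17 lower, 3 higher), and the C646 points stay close to 0 with none filled.

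Chemokine ligands changed in both directions. Of 32 such genes 14 were tested; 4 fell and 2 rose with DMSO, and 5 fell and 2 rose with I-CBP112. The share called was 42.9% with DMSO and 50% with I-CBP112, beside 16.0% and 9.90% of all genes. The CXC ligands Cxcl5 and Cxcl15, which attract neutrophils, had the lowest values among them with I-CBP112. Cxcl5 (ENSMUSG00000029371.7, chr5:90759360-90761624, plus strand) stood at 49.2 normalised counts with DMSO, 34.7 with I-CBP112, 161 with C646 and 156 with ethanol. In the authors' deposited tables its log2 fold change was -1.66 ± 0.36 with DMSO (adjusted p = 7.05e-05), -2.17 ± 0.37 with I-CBP112 (adjusted p = 2.82e-07) and 0.04 ± 0.33 with C646. The DMSO and I-CBP112 levels were thus far below those with C646 and ethanol, which lay close together. Cxcl15 (chr5:90794534-90803067, plus strand), known as lungkine, had 44.6 normalised counts with DMSO, 27.8 with I-CBP112, 154 with C646 and 139 with ethanol. Its fold change in the authors' deposited tables was -1.64 ± 0.36 with DMSO (adjusted p = 9.18e-05) and -2.32 ± 0.38 with I-CBP112 (adjusted p = 5.87e-08), so the level with I-CBP112 was 4.99 times lower than with ethanol.

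Cxcl5 and Cxcl15 are neighbours in the CXC cluster of chromosome 5, their starts 35.2 kb apart. Their transcripts are distinct, since 0.871% of the 31-base words of Cxcl5 and 0.723% of those of Cxcl15 occur in any other gene's transcripts. Cxcl1, a further neutrophil attractant 131.9 kb from the start of Cxcl5, had 60.1 normalised counts with DMSO, 45.1 with I-CBP112, 108 with C646 and 100.4 with ethanol. It fell with I-CBP112, by 1.15 ± 0.38 on the log2 scale in the authors' deposited table (adjusted p = 0.0291), and stood at -0.74 ± 0.37 with DMSO, which did not pass (adjusted p = 0.180). Cxcl2 and Cxcl3, the other cluster members that the symbol rule takes, had mean normalised counts of 1.48 and 3.62 and were not tested.

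The monocyte attractants Ccl2 and Ccl7 went the other way. Ccl2 (ENSMUSG00000035385.5, chr11:82035571-82037453, plus strand) had 333 normalised counts with DMSO, 305 with I-CBP112, 137 with C646 and 150 with ethanol. The authors' deposited tables give a fold change of 1.15 ± 0.23 with DMSO (adjusted p = 2.27e-05), 1.03 ± 0.24 with I-CBP112 (adjusted p = 0.000342) and -0.13 ± 0.24 with C646. Ccl7 starts 10.1 kb further on and had 460 normalised counts with DMSO, 529 with I-CBP112, 299 with C646 and 276 with ethanol. It rose with DMSO by 0.74 ± 0.26 (adjusted p = 0.0291) and with I-CBP112 by 0.94 ± 0.26 (adjusted p = 0.00413) in the authors' deposited tables. These were the only tested ligands of the CC cluster on chromosome 11 between Ccl2 and Ccl1; Ccl11, Ccl12, Ccl8 and Ccl1 had mean normalised counts from 1.21 to 6.93. So, with DMSO and with I-CBP112, Cxcl5, Cxcl15 and Cxcl1 had values below 0 and Ccl2 and Ccl7 values above 0. This split did not hold for CXC and CC ligands at large. Cxcl10 stood at -0.22 ± 0.51 with DMSO and 1.04 ± 0.49 with I-CBP112 in the authors' deposited tables. Ccl9 stood at 0.12 ± 0.35 and -0.32 ± 0.35 there, and neither gene passed. Among the 14 tested chemokine ligands 6 lay above 0 and 8 below with either treatment.

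**Figure D2:**
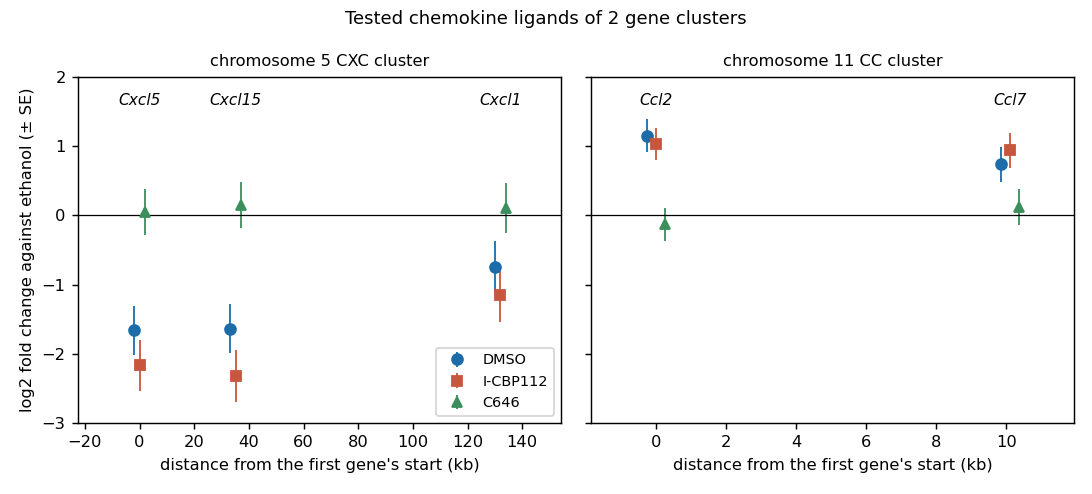
Log2 fold changes against ethanol (vertical axis, ± deposited SE) of the tested ligands of the CXC cluster on chromosome 5 (left) and the CC cluster on chromosome 11 (right), by distance in kb from the first gene's start; the 3 treatments are set slightly apart so that they can be read. Cxcl5, Cxcl15 and Cxcl1 lie below 0 and Ccl2 and Ccl7 above 0 with DMSO and I-CBP112, and the C646 values lie within 1 SE of 0.

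Cxcl12, the ligand of Cxcr4 and a product of stromal cells, was the chemokine with the most counts. It had 10318 normalised counts with DMSO, 8897 with I-CBP112, 14544 with C646 and 14742 with ethanol. In the authors' deposited tables it was at -0.51 ± 0.19 with DMSO (adjusted p = 0.0462) and -0.73 ± 0.19 with I-CBP112 (adjusted p = 0.00282). Per kilobase of its longest coding transcript it had a mean of 2155 normalised counts over all libraries, against 359 for Cxcl14 and 284 for Ccl2. Its receptor Cxcr4 had a mean normalised count of 9.42 and was not tested. Cxcl14, a chemokine of epithelia and stroma, fell with I-CBP112 and not with DMSO. Its level was 848 normalised counts with DMSO, 335 with I-CBP112, 708 with C646 and 733 with ethanol. In the authors' deposited tables this was 0.21 ± 0.19 with DMSO (adjusted p = 0.540) and -1.13 ± 0.20 with I-CBP112 (adjusted p = 6.27e-07). Ccl17, a ligand of Ccr4, fell with DMSO by 1.86 ± 0.59 (adjusted p = 0.0153) and was at -1.14 ± 0.57 with I-CBP112 (adjusted p = 0.237) in the authors' deposited tables, on levels of 13.0, 21.3, 42.2 and 47.1 normalised counts with DMSO, I-CBP112, C646 and ethanol. Of the chemokine receptors 2 of 16 were tested, Ccr9 and Ccr10, with mean normalised counts of 46.3 and 26.6; neither passed in any table.

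**Figure D3:**
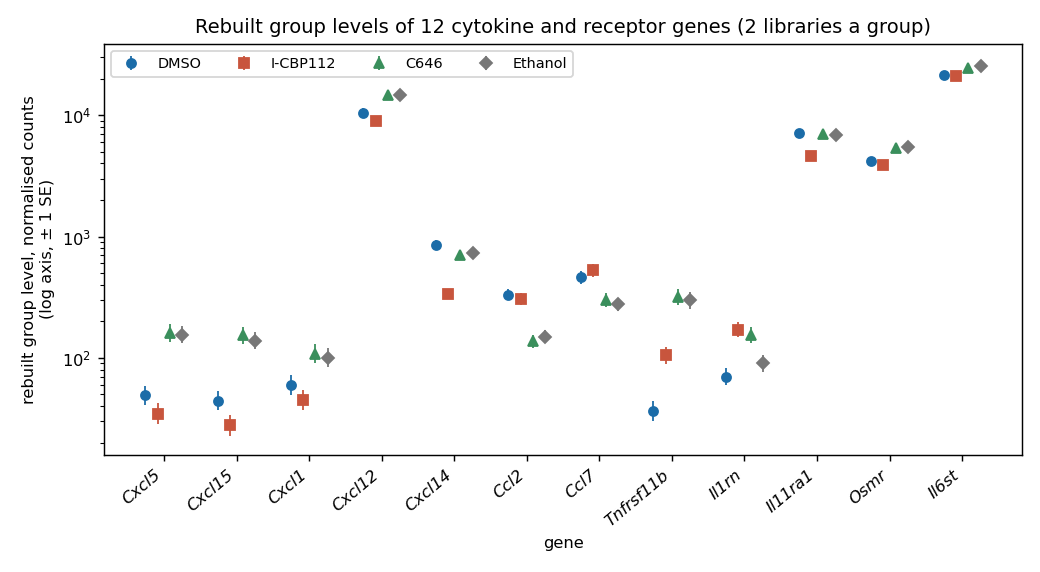
Rebuilt group levels in normalised counts (vertical log axis) of 12 cytokine and receptor genes (horizontal axis) with DMSO, I-CBP112, C646 and ethanol; bars are 1 SE from the rebuilt dispersion with 2 libraries a group. C646 and ethanol lie together for Cxcl5 (161 and 156) and for Ccl2 (137 and 150), with DMSO and I-CBP112 lower in the first and higher in the second.

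Upstream sequence from RefSeq (GRCm38.p6) was taken for 17 of the 25 genes that passed with DMSO or I-CBP112. For these genes, windows on a single chromosome were left out. This gave 23 windows of 250 bases before a start. They were searched on both strands for the kappa-B consensus of NF-kappa-B, the AP-1 motif TGANTCA, the STAT motif TTCNNNGAA and the TATA box TATAAA. Over all 32851 windows of the table, with no chromosome left out, these occur in 3.9%, 6.75%, 7.02% and 12.4%. Of the 23 windows, 2 held the kappa-B consensus (Cxcl1 and a start of Il16), 4 AP-1, 3 STAT and 4, from 3 genes, the TATA box. For some windows the bases after the start were not found near the beginning of a GENCODE transcript of the gene. Among these were the Il16 window with AP-1 letters and an Il33 window with TATA letters. A match describes letters only and shows no binding. Shown are a gene each for the CXC cluster with and without the kappa-B letters (Cxcl1, Cxcl15), for a fall with I-CBP112 alone past the test (Cxcl14) and for a decoy receptor with AP-1 letters (Il13ra2). Each runs 5′ to 3′ on the gene's strand and ends at the base before the start. Capitals mark the kappa-B letters in Cxcl1, where both strands match in overlapping positions, the STAT letters in Cxcl14, the TATA letters in Cxcl15 and Il13ra2 and the AP-1 letters in Il13ra2.
Cxcl1, chr5:90890995-90891244, plus strand: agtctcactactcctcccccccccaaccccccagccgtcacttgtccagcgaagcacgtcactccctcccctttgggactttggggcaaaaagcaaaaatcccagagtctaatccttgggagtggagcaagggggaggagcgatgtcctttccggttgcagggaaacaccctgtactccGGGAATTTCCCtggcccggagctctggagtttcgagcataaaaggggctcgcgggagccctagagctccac
Cxcl15, chr5:90794284-90794533, plus strand: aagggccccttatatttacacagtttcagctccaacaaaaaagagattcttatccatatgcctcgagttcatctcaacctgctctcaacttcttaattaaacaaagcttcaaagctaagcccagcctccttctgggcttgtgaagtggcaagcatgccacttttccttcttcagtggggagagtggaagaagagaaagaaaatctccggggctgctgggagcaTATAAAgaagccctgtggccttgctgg
Cxcl14, chr13:56296552-56296801, minus strand: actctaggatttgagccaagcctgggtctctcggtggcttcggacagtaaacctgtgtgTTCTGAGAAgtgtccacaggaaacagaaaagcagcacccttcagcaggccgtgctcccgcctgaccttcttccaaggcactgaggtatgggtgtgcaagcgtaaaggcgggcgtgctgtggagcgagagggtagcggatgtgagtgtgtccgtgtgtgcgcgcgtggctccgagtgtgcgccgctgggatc
Il13ra2, chrX:147429193-147429442, minus strand: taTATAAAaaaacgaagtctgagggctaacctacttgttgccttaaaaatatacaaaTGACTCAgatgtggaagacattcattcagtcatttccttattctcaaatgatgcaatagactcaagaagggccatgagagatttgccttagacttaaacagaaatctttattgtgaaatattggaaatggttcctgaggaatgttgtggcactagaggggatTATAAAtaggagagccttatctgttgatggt

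Interleukins and related ligands were mostly low in these cells: 9 of 39 were tested, of which 2 fell with DMSO and 3 with I-CBP112, with none higher. These are 22.2% of the 9 with DMSO and 33.3% with I-CBP112, beside 7.90% and 5.25% of all genes lower. Il16, a ligand of CD4, had 52.7 normalised counts with DMSO, 64.2 with I-CBP112, 147 with C646 and 174 with ethanol. It fell with DMSO by 1.72 ± 0.33 (adjusted p = 8.04e-06) and with I-CBP112 by 1.43 ± 0.33 (adjusted p = 0.000473) in the authors' deposited tables. Of its 31-base words 14.6% also occur in Stard5, which overlaps it on the opposite strand and stood at 0.66 ± 0.26 with DMSO and 0.84 ± 0.26 with I-CBP112 in the authors' deposited tables. Il33, a nuclear alarmin of the interleukin-1 family, had 139 normalised counts with DMSO, 98.8 with I-CBP112, 217 with C646 and 210.3 with ethanol. It fell with I-CBP112 by 1.09 ± 0.31 (adjusted p = 0.00807) and was at -0.59 ± 0.31 with DMSO, short of the threshold, in the authors' deposited tables. Its receptor Il1rl1 stood at 0.80 ± 0.32 with I-CBP112 (adjusted p = 0.0947) and -0.08 ± 0.33 with DMSO in the authors' deposited tables. Il17d, a ligand of the interleukin-17 family, had 468 normalised counts with DMSO, 359 with I-CBP112, 510 with C646 and 532 with ethanol. The authors' deposited tables have it at -0.57 ± 0.20 with I-CBP112 (adjusted p = 0.0426) and -0.19 ± 0.19 with DMSO.

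Lif, leukaemia inhibitory factor, a ligand of gp130 receptors, had 143 normalised counts with DMSO, 196 with I-CBP112, 229 with C646 and 257 with ethanol. It fell with DMSO by 0.85 ± 0.25 (adjusted p = 0.00625) and was at -0.39 ± 0.24 with I-CBP112 (adjusted p = 0.409) in the authors' deposited tables. The inflammatory cytokines Il6 and Tnf lay below the filter, with mean normalised counts of 20.2 and 1.86. Il6 had 13.0 normalised counts with DMSO, 5.78 with I-CBP112, 30.7 with C646 and 31.4 with ethanol, and its fold changes in the authors' deposited tables were -1.28 ± 0.94 with DMSO, -2.44 ± 0.96 with I-CBP112 (unadjusted p = 0.0110, with no adjusted p) and -0.03 ± 0.91 with C646. Il1b was at 0 in all libraries.

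Natural inhibitors of interleukins, set apart as a role after their values were seen, held 1 higher and 2 lower genes of 4 tested with I-CBP112 and 1 lower gene with DMSO. That is 75% called with I-CBP112, beside 9.90% of all genes, and 25% with DMSO, beside 16.0%. Because the role was formed from these values, the shares cannot be read as a trait of it. Il1rn, the interleukin-1 receptor antagonist, had 70.3 normalised counts with DMSO, 171 with I-CBP112, 154 with C646 and 90.0 with ethanol. It rose with I-CBP112 by 0.93 ± 0.31 (adjusted p = 0.0339) and was at -0.36 ± 0.33 with DMSO in the authors' deposited tables. With C646 the authors' deposited table has it at 0.77 ± 0.32 (unadjusted p = 0.0154, adjusted p = 1), so its levels with I-CBP112 and C646 lay close together and above those with DMSO and ethanol. Il13ra2, the decoy receptor of interleukin-13 whose upstream letters are shown above, had 67.7 normalised counts with DMSO, 44.4 with I-CBP112, 150.3 with C646 and 140 with ethanol. It fell with DMSO by 1.05 ± 0.35 (adjusted p = 0.0222) and with I-CBP112 by 1.65 ± 0.36 (adjusted p = 0.000159) in the authors' deposited tables. Il22ra2, the soluble binding protein of interleukin-22, fell with I-CBP112 by 1.48 ± 0.50 (adjusted p = 0.0357) and was at -0.41 ± 0.48 with DMSO in the authors' deposited tables. Il18bp, which binds interleukin-18, passed in neither.

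Among signalling receptors of interleukins, Osmr fell with DMSO and with I-CBP112. Of 40 such genes 22 were tested; 2 fell with DMSO (9.09%, where 7.90% of all genes fell), 4 fell with I-CBP112 (18.2%, where 5.25% fell), and none rose. Il6st, the gp130 chain shared by the interleukin-6 family, had 21433 normalised counts with DMSO, 20829 with I-CBP112, 24617 with C646 and 25481 with ethanol, the most of all members. In the authors' deposited tables it stood at -0.25 ± 0.12 with DMSO (adjusted p = 0.160) and -0.29 ± 0.12 with I-CBP112 (adjusted p = 0.117), neither past the test. Osmr, the oncostatin M receptor that pairs with gp130, had 4150 normalised counts with DMSO, 3911 with I-CBP112, 5368 with C646 and 5498 with ethanol. It fell with DMSO by 0.41 ± 0.12 (adjusted p = 0.00581) and with I-CBP112 by 0.49 ± 0.12 (adjusted p = 0.00073) in the authors' deposited tables. The other gp130 partner Lifr was at 0.08 ± 0.16 with DMSO and -0.07 ± 0.16 with I-CBP112 in the authors' deposited tables.

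Il11ra1, the interleukin-11 receptor, fell with I-CBP112 alone past the test. It had 7184 normalised counts with DMSO, 4593 with I-CBP112, 6965 with C646 and 6838 with ethanol, and the authors' deposited table gives -0.57 ± 0.12 with I-CBP112 (adjusted p = 5.96e-05). Of its 31-base words 57.7% also occur in Gm13305, a near copy, so the split of reads between these copies is uncertain; Gm13305 had a mean normalised count of 11.7. Il17re, a receptor of interleukin-17C, fell with I-CBP112 by 0.91 ± 0.24 (adjusted p = 0.00297) and Il4ra, the interleukin-4 receptor, by 0.41 ± 0.14 per the authors' deposited table (adjusted p = 0.0392). The chain Il3ra, which binds interleukin-3, was the other receptor to fall with DMSO, by 0.85 ± 0.25 (adjusted p = 0.00666), with 0.15 ± 0.24 under I-CBP112 in the authors' deposited tables. Its levels were 154 normalised counts with DMSO, 308 with I-CBP112, 291 with C646 and 277 with ethanol, so DMSO stood apart from the other 3 groups.

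Among colony-stimulating factors and receptors 5 of 8 were tested, and 1 fell with DMSO and another with I-CBP112. That is 20% each, beside 7.90% of all genes lower with DMSO and 5.25% with I-CBP112. Csf1, the growth factor of macrophages, had 10940 normalised counts with DMSO, 7499 with I-CBP112, 9000 with C646 and 8941 with ethanol. Against ethanol it passed in no comparison, with 0.29 ± 0.12 under DMSO (adjusted p = 0.0914) and -0.25 ± 0.12 under I-CBP112 (adjusted p = 0.218) in the authors' deposited tables. Its receptor Csf1r, a gene of macrophages, fell with I-CBP112 by 0.64 ± 0.22 (adjusted p = 0.0367) and was at -0.05 ± 0.21 with DMSO in the authors' deposited tables. Of its 31-base words 14.6% also occur in Hmgxb3, which overlaps it on the opposite strand, had a mean normalised count of 1717 and stood at 0.17 ± 0.13 with I-CBP112 in the authors' deposited table. Csf1r had 329 normalised counts with DMSO, 218 with I-CBP112, 316 with C646 and 340 with ethanol. Of the 14 tested macrophage and leukocyte marker rows, 10 lay below 0 with I-CBP112 and 4 above, with a median of -0.27. Only Adgre1 was called among these 14. Csf2rb, the common beta chain of receptors for GM-CSF and interleukins 3 and 5, had 9.89 normalised counts with DMSO, 21.1 with I-CBP112, 43.9 with C646 and 46.7 with ethanol. The authors' deposited tables have it at -2.24 ± 0.66 with DMSO (adjusted p = 0.0077) and -1.15 ± 0.62 with I-CBP112 (adjusted p = 0.306). It shares 18.8% of its 31-base words with its copy Csf2rb2, which stood at -1.40 ± 0.72 with DMSO in the authors' deposited table, not past the test.

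In the TNF family, the receptors Tnfrsf11b and Tnfrsf1a fell with DMSO and with I-CBP112, and the ligand Tnfsf12 fell with DMSO. Of 20 receptor genes 13 were tested, and the 2 that fell are 15.4% of them with either treatment. Of all genes, 7.90% were lower with DMSO and 5.25% with I-CBP112. Tnfrsf11b (ENSMUSG00000063727.3, chr15:54250619-54278484, minus strand) encodes osteoprotegerin, the decoy receptor of the bone cytokine RANKL. It had 36.8 normalised counts with DMSO, 105 with I-CBP112, 319 with C646 and 297 with ethanol, so that with DMSO it was 8.09 times and with I-CBP112 2.84 times lower than with ethanol. The authors' deposited tables give -3.02 ± 0.35 with DMSO (adjusted p = 8.64e-16), -1.50 ± 0.32 with I-CBP112 (adjusted p = 0.000104) and 0.10 ± 0.31 with C646. The gene of its ligand, Tnfsf11, lay below the filter with a mean normalised count of 12.7, and was at -2.15 ± 1.00 with DMSO and -1.34 ± 0.95 with I-CBP112 in the authors' deposited tables, without an adjusted p.

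Tnfrsf1a, the main TNF receptor of fibroblasts, had 2781 normalised counts with DMSO, 2694 with I-CBP112, 3491 with C646 and 3526 with ethanol. It fell with DMSO by 0.34 ± 0.12 (adjusted p = 0.0402) and with I-CBP112 by 0.39 ± 0.12 (adjusted p = 0.0232) in the authors' deposited tables. Tnfrsf12a, the receptor of TWEAK, had a mean normalised count of 1585 and stood at 0.03 ± 0.13 with DMSO and 0.24 ± 0.13 with I-CBP112 in the authors' deposited tables, neither past the test. Its ligand Tnfsf12 fell with DMSO by 0.50 ± 0.19 (adjusted p = 0.049) and was at 0.01 ± 0.19 with I-CBP112 in the authors' deposited tables; 47.4% of its 31-base words also occur in the readthrough gene Tnfsfm13, which stood at -0.04 ± 0.20 with DMSO in the authors' deposited table. Of 13 TNF ligands 3 were tested: Tnfsf12, Tnfsfm13 and Tnfsf9. Tnfsf9, a costimulatory ligand of T cells, had 32.1 normalised counts with DMSO, 32.2 with I-CBP112, 80.0 with C646 and 70.9 with ethanol; its value of -1.14 ± 0.46 with both DMSO (adjusted p = 0.0705) and I-CBP112 (adjusted p = 0.103) in the authors' deposited tables did not pass.

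**Figure D4:**
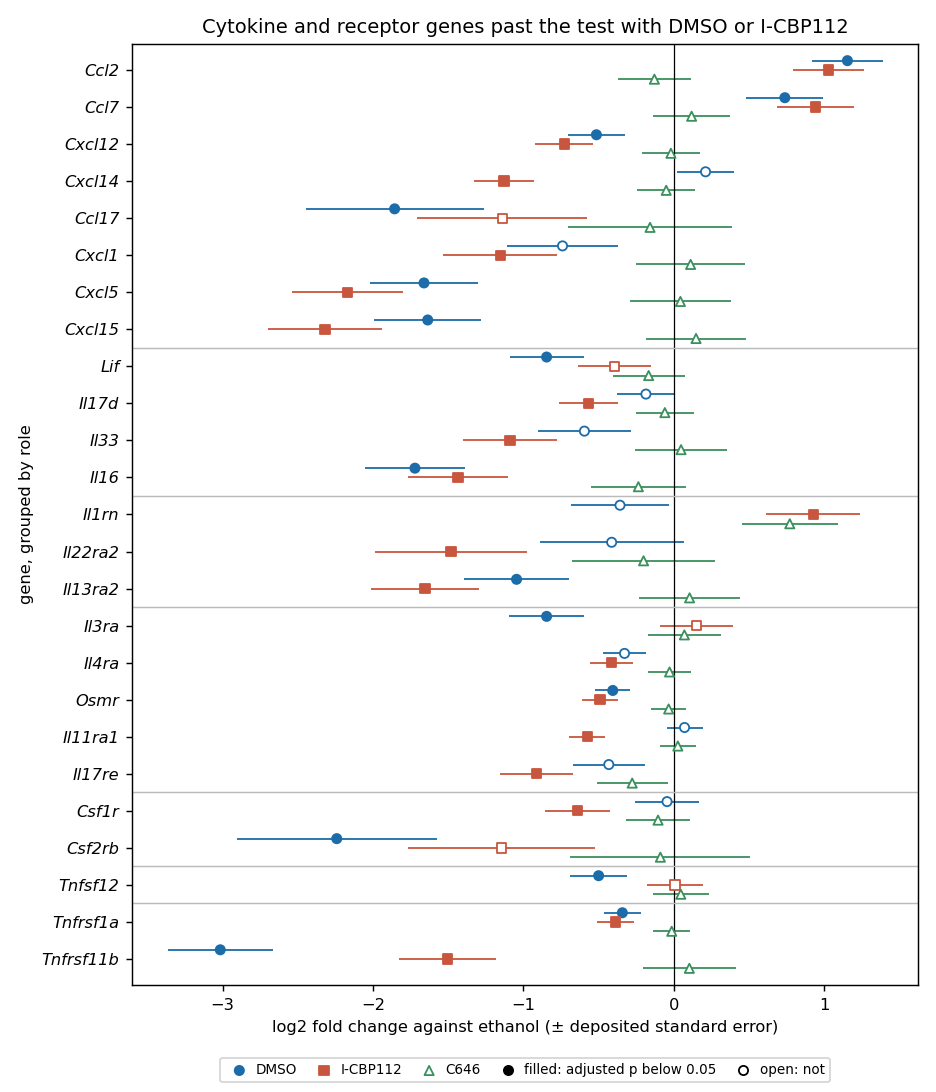
Log2 fold changes against ethanol (horizontal axis, ± deposited SE) of the 25 genes that passed with DMSO or I-CBP112, in rows grouped by role; circles are DMSO, squares I-CBP112 and triangles C646, filled where adjusted p was below 0.05. Tnfrsf11b with DMSO (-3.02) lies farthest from 0, Ccl2, Ccl7 and Il1rn hold the filled points right of 0, and no C646 point is filled.

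With C646 the fold changes of these genes were small. Of the 72 tested genes, 62 had an absolute log2 fold change under 0.25 and the extremes were -0.45 (Csf2rb2, ± 0.70) and 0.79 (Cxcl10, ± 0.49) in the authors' deposited table. None of the 157 genes with counts passed there (DESeq2 test), and 1, Il1rn, had an unadjusted p below 0.05. Over the 14830 genes tested with DMSO, 111 had an unadjusted p below 0.05 with C646. That is fewer than this threshold passes on average when nothing changes, so the standard errors with C646 may be too large. The intervals that follow carry the same limit. The 95% interval of the C646 fold change ran from -0.61 to 0.70 for Cxcl5 and from -0.61 to 0.35 for Ccl2. It ran from -0.51 to 0.71 for Tnfrsf11b and from -0.43 to 0.33 for Cxcl14. These 4 genes all passed with I-CBP112, so their intervals do not stand for the 72 genes.

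Set directly against 1% DMSO, I-CBP112 gave higher Tnfrsf11b, Il1rn and Il3ra and lower Cxcl14, Il15ra, Il11ra1 and Csf1. The comparison takes the difference of the 2 deposited fold changes, with an SE rebuilt from the 3 tables. Of the 72 genes 3 were higher and 4 lower with I-CBP112 than with DMSO, 9.72% where 6.97% of all 14830 tested genes were called (4.31% higher, 2.66% lower). Higher were Tnfrsf11b by 1.51 ± 0.36 (adjusted p = 0.000994), Il1rn by 1.28 ± 0.32 (adjusted p = 0.00209) and Il3ra by 1.00 ± 0.25 (adjusted p = 0.0019), tested with a normal distribution and Benjamini-Hochberg adjustment. Lower were Cxcl14 by 1.34 ± 0.20 (adjusted p = 1.93e-09), Il15ra, the interleukin-15 receptor, by 0.73 ± 0.22 (adjusted p = 0.0167), Il11ra1 by 0.65 ± 0.12 (adjusted p = 6.99e-06) and Csf1 by 0.54 ± 0.12 (adjusted p = 0.000437). Cxcl14 was thus 2.53 times lower with I-CBP112 than with DMSO, and Tnfrsf11b 2.85 times higher. With an upper bound of the SE, Cxcl14 and Il11ra1 still passed and the other 5 did not. For Cxcl5 the difference was not past the test and its 95% interval ran from -1.27 to 0.25, and for Ccl2 from -0.57 to 0.32, so changes of up to those sizes in either direction remain possible.

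**Figure D5:**
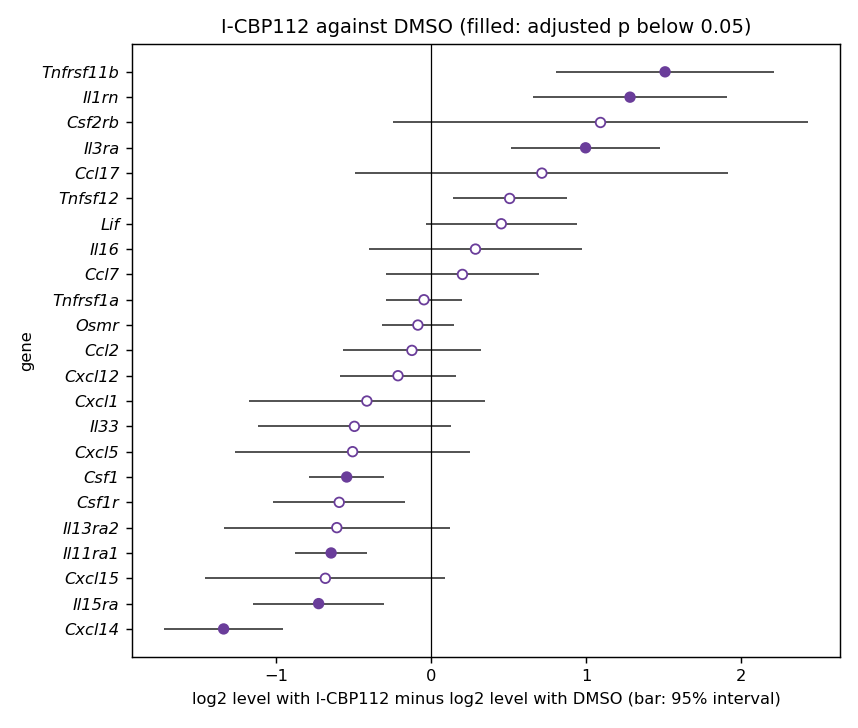
Log2 level with I-CBP112 minus log2 level with DMSO (horizontal axis, bars 95% intervals) for 23 genes named in the text; filled points passed adjusted p 0.05. Tnfrsf11b, Il1rn and Il3ra lie right of 0, and Cxcl14, Il15ra, Il11ra1 and Csf1 left of it.

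Between the inhibitors, both given at 5 µM for 7 days, 2 genes were higher and 13 lower with I-CBP112 than with C646, 20.8% of the 72 where 9.80% of all tested genes were called (4.69% higher, 5.11% lower). The higher genes were Ccl2 by 1.16 ± 0.24 (adjusted p = 3.89e-05) and Ccl7 by 0.82 ± 0.25 (adjusted p = 0.0172). With an upper bound of the SE, Ccl7, Tnfsf9, Cxcl1, Il16, Il33, Cxcl12, Osmr and Tnfrsf1a did not pass. Cxcl15, at -2.47 ± 0.37 (adjusted p = 4.36e-09), Cxcl5, at -2.21 ± 0.37 (adjusted p = 1.42e-07), Il13ra2, at -1.76 ± 0.36, and Tnfrsf11b, at -1.61 ± 0.32, led the lower genes. The others were Tnfsf9, Cxcl1, Il16, Il33, Cxcl14, Cxcl12, Il11ra1, Osmr and Tnfrsf1a, from -1.31 for Tnfsf9 to -0.37 for Tnfrsf1a. Against DMSO, C646 had 14 genes higher and 2 lower, 22.2% of the 72 where 15.8% of all tested genes were called (7.98% higher, 7.86% lower). Tnfrsf11b was higher with C646 than with DMSO by 3.12 ± 0.35 (adjusted p = 6.47e-17) and Ccl2 lower by 1.28 ± 0.24 (adjusted p = 1.79e-06). Il1r1, the signalling receptor of interleukin-1, was higher by 0.41 ± 0.15 (adjusted p = 0.0324), and Il15ra was lower by 0.58 ± 0.22 (adjusted p = 0.0478), a call that ended when groups were scaled to equal totals. The upper bound of the SE ended 11 of these 16 calls, those of Ccl17, Csf2rb, Il13ra2, Il15ra, Il1r1, Il1rn, Il3ra, Lif, Osmr, Tnfsf12 and Tnfsf9.

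Among the signalling genes behind these receptors, Socs3 and Irak2 fell with DMSO and also with I-CBP112. Of 25 tested JAK, STAT and SOCS genes 2 rose and 2 fell with DMSO and 3 rose and 1 fell with I-CBP112, with medians of -0.02 and -0.03. The share called was 16% with both, beside 16.0% of all genes with DMSO and 9.90% with I-CBP112. Socs3, the feedback inhibitor that gp130 signals induce, fell with DMSO by 0.68 ± 0.18 (adjusted p = 0.0026) and with I-CBP112 by 0.75 ± 0.19 (adjusted p = 0.0012) in the authors' deposited tables. Cish, a STAT5 target, fell with DMSO by 1.12 ± 0.27 and was at -0.32 ± 0.26 with I-CBP112 in the authors' deposited tables. Of 33 tested NF-kappa-B signalling and feedback genes 4 fell and 1 rose with DMSO and 1 fell with I-CBP112, with medians of -0.06 for both. That is 15.2% called with DMSO, near the share of all genes, and 3.03% with I-CBP112, below it. With C646 none of either list passed (DESeq2 test of the authors' deposited table). Tnfaip3, the feedback inhibitor A20, fell with DMSO by 1.29 ± 0.31, as did Bcl3 by 1.64 ± 0.43, and they stood at -0.79 ± 0.31 and -0.52 ± 0.39 with I-CBP112, short of the threshold, in the authors' deposited tables. Irak2, a kinase-like adaptor of the interleukin-1 receptor, fell with DMSO by 0.79 ± 0.20 and with I-CBP112 by 0.64 ± 0.20 in the authors' deposited tables.

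These calls depend on how the spread of 2 libraries is treated. When the same ratios of change to SE were read against a t curve with 4 degrees of freedom, no cytokine or receptor gene passed in any of the 6 comparisons, and over all genes 1 passed with DMSO and 0 in the others. At an unadjusted p below 0.05 that reading left 12 of the 72 genes for DMSO, 20 for I-CBP112 and 0 for C646. The share of all genes at that unadjusted p was not computed, so these counts cannot be read as a trait of the 72 genes. Adjusting p over every gene with a p ended the DMSO calls of Ccl7, Cxcl12, Il13ra2, Tnfrsf1a and Tnfsf12, and the I-CBP112 calls of Csf1r, Cxcl1, Il17d, Il1rn, Il22ra2, Il4ra and Tnfrsf1a.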

How the data were processed

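RNA was sequenced from total RNA of 8 libraries. Per the submitters' processing notes, the authors used kallisto 0.43.1 and DESeq2 (version not given in the sources used here) on GRCm38.p5; whether counting used strand is not given there. Per the file headers, the authors deposited baseMean, a signal that is the mean of counts divided by size factors over all libraries, log2 fold changes with standard errors, the Wald statistic as a score, and p-values. The 3 tables share baseMean, so 1 fit lies behind them. Calls against ethanol use the adjusted p that the authors deposited, at 0.05.

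Group levels were rebuilt from baseMean and the 3 deposited log2 fold changes. The variance was taken as the reciprocal of the level plus 1 dispersion per gene, over 2 libraries, which gave 98.9%, 99% and 99% of the deposited standard errors with DMSO, I-CBP112 and C646 to within 1%, and 71, 72 and 72 of those of the 72 genes. Differences between treatments used a normal p, adjusted by Benjamini-Hochberg over the 14830 tested genes. The calculation was tested on simulated data made with the same variance formula and known dispersions. Such data cannot show how well the formula or the p-values hold for these 2 libraries a group. Python 3.11.15, pandas 2.3.3 and scipy 1.17.1 were used.

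Genes and lists were chosen with earlier results of these data known. Named are genes past the test in a comparison, 12 fixed genes and the 2 with most counts per role; 5 antagonists and decoys were set apart as a role after the data were seen, and genes outside this rule are named as neighbours, copies, ligands or receptors of those. Cxcl10 and Csf2rb2, the extremes with C646, were chosen after their values were seen, as were Ccl9, Kdr, Tek, Pecam1, Krt14, Krt8 and Mcpt4. Positions and 31-base words come from GENCODE M21 (GRCm38), which holds all 174 genes, and upstream windows of 250 bases from RefSeq (GRCm38.p6). Alternatives were other adjustments, a t distribution, a wider standard error, other scalings and a count minimum of 50.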

Additional observations from a re-analysis of the deposited data

How the results depend on the processing

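Of 66 recomputed counts of called cytokine and receptor genes, 46 came within 1.5 times the reported count and 20 did not. The 46 include every alternative for C646 against ethanol, where all counts were 0. They also include the adjustment over the genes tested with DMSO, which for DMSO and I-CBP112 repeats the deposited one. Agreement in these says nothing about how stable the other counts are. A t curve with 4 degrees of freedom left 0 higher and 0 lower in each comparison; only the distribution differs there. Adjusting over all genes with a p left 1 higher (without Ccl7) and 9 lower (without Cxcl12, Il13ra2, Tnfrsf1a and Tnfsf12) with DMSO, and 2 higher (without Il1rn) and 11 lower (without Csf1r, Cxcl1, Il17d, Il22ra2, Il4ra and Tnfrsf1a) with I-CBP112; more genes are tested there. An upper bound of the rebuilt standard error left 0 higher and 2 lower for I-CBP112 against DMSO (Csf1, Il15ra, Il1rn, Il3ra and Tnfrsf11b no longer passed), 4 higher and 1 lower for C646 against DMSO, and 1 higher and 6 lower for I-CBP112 against C646. Centring on the median gene, or scaling to equal totals, left 1 lower for C646 against DMSO, without Il15ra, and added Cxcl12 and Tnfrsf1a as higher; scaling to totals also ended the I-CBP112 calls of Il17d and Il4ra, and centring added Il1r1 with DMSO.

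No paired analysis was possible because the deposited tables hold no values of single libraries; for the same reason no fit without a library was made. Genes under a mean normalised count of 26.1 have no adjusted p with DMSO or I-CBP112, which limits what can be said of Il6, Tnf and most chemokine receptors.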

Other observations

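Cytokines and receptors whose symbols fall outside the pattern, taken from a list of 44 genes, were counted in the same way. Of 25 tested, 2 rose and 2 fell with DMSO, 0 rose and 6 fell with I-CBP112, and 0 passed with C646 in the authors' deposited tables (DESeq2 test, adjusted p below 0.05). The share called was 16% with DMSO, beside 16.0% of all genes, and 24% with I-CBP112, beside 9.90%. Ifngr1, the ligand-binding chain of the interferon-gamma receptor, fell with DMSO by 0.69 ± 0.12 and with I-CBP112 by 1.23 ± 0.12 in the authors' deposited tables. Clcf1, a ligand of the interleukin-6 family, fell with DMSO by 1.51 ± 0.35 and was at -0.84 ± 0.34 with I-CBP112, short of the threshold, in the authors' deposited tables. Kitl, stem cell factor, fell with I-CBP112 by 0.53 ± 0.14 in the authors' deposited table. The scavenging chemokine receptor Ackr4 and the chemokine Cx3cl1 fell with I-CBP112 by 1.59 ± 0.41 and 0.82 ± 0.27, and Cx3cr1, the receptor of Cx3cl1, by 2.03 ± 0.72 on a mean normalised count of 26.2, in the authors' deposited table. With DMSO, the interferon receptor chain Ifnar1 rose by 0.39 ± 0.12 and the TNF receptor family member Relt by 0.92 ± 0.28 in the authors' deposited table.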
